A study of Mus musculus with 6 samples.

Results

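The genes described here are the adipogenic regulators and lipid droplet genes of cultured mouse tendon stem/progenitor cells. They were chosen by name: 10 genes were listed, namely Pparg, Cebpa, Cebpb, Fabp4, Adipoq, Lpl, Plin1, Plin4, Cd36 and Cidec, and every row of the expression table carrying one of these names was taken. The table held 9 of them among its 15711 genes; Cidec had no row in the table used and was not analysed here. Tendon stem/progenitor cells (TSPCs) are fibroblast-like tendon cells with the capacity, in culture, to become fat cells as well as cells of bone, cartilage and tendon. The labelled-positive group was cells sorted by flow cytometry as Col1a1+Vldlr+, and the labelled-negative group was cells sorted as Col1a1+Vldlr-, with 3 RNA-seq libraries each. All 6 libraries came from mice carrying Col1a1-Cre, in which the type I collagen promoter drives the recombinase, and a YFP reporter (the number in the genotype label differs between samples, and the labels were read as 1 genotype), and all cells were kept after the sort in DMEM with 20% fetal bovine serum. Mouse age and any adipogenic inducer are not named in the labels. The labels do not say whether the libraries of a group came from separate cultures or animals, so every p-value refers to the spread among these libraries alone, part or all of which may be technical.

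Fat cell formation runs through a relay of transcription factors. Cebpb, with Cebpd, acts early and switches on Pparg and Cebpa, which then keep each other on and turn on the genes of the mature fat cell. Those genes take up fatty acid (Lpl outside the cell, Cd36 at its surface, Fabp4 in the cytoplasm), coat and enlarge the lipid droplet (Plin1, Plin4, Cidec) and make secreted products such as adiponectin (Adipoq). In tendon, fat cell formation is known as a feature of degenerated tissue, and cultured TSPCs are routinely tested for it.

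Pparg and Cebpb were higher in the labelled-positive cells, and Cebpa, Fabp4, Adipoq, Lpl, Plin1, Plin4 and Cd36 were lower. The changes ran from 80.4-fold lower for Cd36 to 2.26-fold higher for Pparg, by the ratio of group mean RPKM (reads scaled by library size and taken per kilobase of exon). All 9 genes passed the test, limma on log2(RPKM + 1) with Benjamini-Hochberg adjustment over the 12116 genes that had at least 1 RPKM in at least 3 libraries. Over those 12116 genes, 29.7% were called higher and 26.1% lower, so a call alone is common in this comparison. A stricter test asked whether the change exceeded 1.5-fold on the log2(RPKM + 1) scale. It called 7 of the 9 genes, Pparg higher and 6 lower, where 4.43% of all tested genes were called higher and 5.00% lower. Cebpb and Plin4 did not pass it. The median log2 fold change of the 9 genes was -1.53, beside 0.02 over all tested genes. In all 9 the groups did not overlap, as in 62.9% of tested genes, and the two-sided exact permutation test gave p = 0.1 for each, the smallest value that 3 libraries against 3 allow. Plin1 and Cd36 passed the filter on low values only through the labelled-negative libraries, so those genes could enter the test only by being higher there, and their direction is a description. The median of -1.53 includes both and is the value of Plin1 itself, so it is a description too. Of the 7 genes at the filter in libraries of both groups, 2 were higher and 5 lower.

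Vldlr, the receptor used for the sort, averaged 4.13 ± 0.53 RPKM in labelled-positive cells and 0.80 ± 0.28 RPKM in labelled-negative cells (SD, n = 3 each). The RPKM of 15690 of the 15691 genes with a known exon length corresponded to whole numbers of reads in every library, to within 0.01 reads, and Vldlr was the exception. Its labelled-negative values were off whole reads as they stood and came to whole reads with 5 RPKM added, the single amount tried. The addition gives 5.96, 5.96 and 5.47 RPKM, above the 4.73, 3.97 and 3.70 RPKM in the labelled-positive libraries. Vldlr can therefore not check the labels, and the groups are called here by their label. Col1a1, the other sort gene, averaged 3027 ± 119 RPKM in labelled-positive and 1789 ± 86 RPKM in labelled-negative libraries, so both express the marker of the sorted lineage strongly. Each library held 17280540 to 17719560 reads as worked out from the RPKM, and mitochondrial genes took 1.59% to 1.95% of them in labelled-positive libraries and 2.58% to 2.92% in labelled-negative libraries. Labelled-positive replicate 1 stood apart from its group: the chi-square per gene was 13.8 and 11.9 against replicates 2 and 3, which differed from each other by 2.27. Without that library, all 9 genes kept their call and direction.

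The start regions of Pparg and of Plin1, Cd36 and Adipoq are shown because these genes moved in opposite directions, Pparg higher and the other 3 lower in labelled-positive cells, and because Pparg and C/EBP factors are known activators of fat cell genes. Each sequence is a RefSeq window on GRCm38.p6, 300 bases long, from 250 before to 50 after an annotated start, read 5′ to 3′ on the gene's strand. Capitals mark matches on either strand to TTGCNNAA (a C/EBP-type site), AGGTCA (the hexamer that nuclear receptors such as Pparg recognise), TATAAA or CCAAT. The 2 Pparg windows are the first and the last of its 3 annotated starts. The Cd36 window lies inside the annotated gene, downstream of its outermost 5′ end at chr5:17888801, which had no window here.
Pparg, first start, chr6:115360894-115361193, plus strand: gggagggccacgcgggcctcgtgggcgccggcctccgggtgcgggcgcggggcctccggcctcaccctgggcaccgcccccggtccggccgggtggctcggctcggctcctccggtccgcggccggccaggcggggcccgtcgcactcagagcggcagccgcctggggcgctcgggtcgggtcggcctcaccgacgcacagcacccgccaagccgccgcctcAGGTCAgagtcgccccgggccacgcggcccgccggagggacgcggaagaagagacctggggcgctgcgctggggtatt
Pparg, last start, chr6:115421816-115422115, plus strand: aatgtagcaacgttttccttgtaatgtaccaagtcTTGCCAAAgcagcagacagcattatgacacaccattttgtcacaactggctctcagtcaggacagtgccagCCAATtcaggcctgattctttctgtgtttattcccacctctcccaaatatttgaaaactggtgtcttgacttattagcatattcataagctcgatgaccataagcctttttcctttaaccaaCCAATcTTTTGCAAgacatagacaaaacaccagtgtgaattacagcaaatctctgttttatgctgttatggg
Plin1, chr7:79732727-79733026, minus strand: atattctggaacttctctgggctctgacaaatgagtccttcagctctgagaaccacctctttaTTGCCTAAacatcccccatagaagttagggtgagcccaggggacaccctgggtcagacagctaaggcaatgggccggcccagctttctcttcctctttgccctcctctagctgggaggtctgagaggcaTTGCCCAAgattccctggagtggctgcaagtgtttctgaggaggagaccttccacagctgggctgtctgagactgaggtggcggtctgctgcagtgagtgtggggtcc
Cd36, chr5:17835847-17836146, minus strand: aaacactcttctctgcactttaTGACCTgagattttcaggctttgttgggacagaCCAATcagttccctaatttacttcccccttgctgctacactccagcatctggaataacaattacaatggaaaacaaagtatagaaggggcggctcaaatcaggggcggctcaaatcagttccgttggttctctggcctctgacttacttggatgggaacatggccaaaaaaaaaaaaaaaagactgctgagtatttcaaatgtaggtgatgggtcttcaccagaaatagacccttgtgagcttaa
Adipoq, chr16:23146286-23146585, plus strand: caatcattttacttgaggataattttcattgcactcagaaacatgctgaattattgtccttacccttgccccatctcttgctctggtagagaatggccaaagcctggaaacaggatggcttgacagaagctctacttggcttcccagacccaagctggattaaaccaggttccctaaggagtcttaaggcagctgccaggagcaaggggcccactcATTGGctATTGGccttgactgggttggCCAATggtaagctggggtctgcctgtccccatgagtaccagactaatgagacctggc

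TTGCNNAA occurred at 2 places each in the Plin1 window and in the last Pparg window, at 1 place in a window of Cidec, and in no window of Cebpa, Cebpb, Plin4, Cd36 or Adipoq; 10.8% of all 32851 mouse windows held it. AGGTCA occurred in the Cd36 window and in the first and second Pparg windows, against 16.3% of all windows. The Adipoq window held CCAAT at 3 places, a motif found in 37.4% of all windows. TATAAA, present in 13.6% of windows, occurred in those of Cebpa and Cebpb and in the second Pparg window. The paired form of AGGTCA, with 1 base between the hexamers, occurred in 0.0396% of windows and in no member's. Fabp4 and Lpl had no window in the table used. The first Pparg window was 80.3% G and C and the last 40.3%, and those of Cd36, Adipoq and Plin1 were 43%, 50% and 55.7%. These are descriptions of the letters only. The expression table has 1 value per gene, so the use of the alternative Pparg starts, the downstream of which is known to make the adipocyte-enriched isoform, cannot be told apart.

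Among the regulators, Pparg, the nuclear receptor required for fat cell formation, was measured over 2953 bases of exon at chr6:115360951-115490399 (plus strand, GRCm38, GENCODE M21). It had 11.7, 11.7 and 11.8 RPKM in labelled-positive libraries, against 4.84, 5.77 and 4.95 RPKM in labelled-negative libraries. The 3 labelled-positive values lay close together and all above the highest labelled-negative one. The means were 11.7 ± 0.08 and 5.18 ± 0.51 RPKM (SD, n = 3 each), and the log2 fold change was 1.04 (SE 0.07, 95% interval 0.89 to 1.20, adjusted p = 4.4e-06; against a 1.5-fold change, adjusted p = 0.0011). That level placed Pparg at the 75.2nd percentile of the table's genes in labelled-positive cells and at the 56th in labelled-negative cells.

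Cebpa, the partner of Pparg that maintains the fat cell state, moved the other way. It is a gene of 2636 exonic bases at chr7:35119293-35121928 (plus strand). It had 12.92, 14.99 and 13.78 RPKM in labelled-positive libraries and 28.6, 29.6 and 30.8 RPKM in labelled-negative libraries. The highest labelled-positive value lay well below the lowest labelled-negative one. The means were 13.9 ± 1.04 and 29.7 ± 1.12 RPKM, 2.13-fold lower in labelled-positive cells, with a log2 fold change of -1.04 (SE 0.06, adjusted p = 3.3e-06; against 1.5-fold, adjusted p = 7.7e-04). Its percentile in the table was 78.8 in labelled-positive and 90.9 in labelled-negative cells.

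Cebpb, the early factor of the relay (chr2:167688915-167690418, plus strand, 1504 exonic bases), had 27.5, 33.0 and 31.0 RPKM in labelled-positive libraries, against 19.1, 17.5 and 21.6 RPKM in labelled-negative libraries. The gap between the groups was 1.57-fold of the means, larger than the spread within either group. The log2 fold change was 0.63 (SE 0.09, adjusted p = 5.6e-04), and it did not pass the 1.5-fold test (adjusted p = 1). Exons of Cebpb and of Tmem189, on the opposite strand, share 312 bases, and whether the authors' counting used strand is not given. Tmem189 went the other way, with 11.2 ± 0.62 RPKM in labelled-positive and 14.7 ± 0.75 RPKM in labelled-negative cells (log2 fold change -0.37, adjusted p = 0.0014). A 51-base exon overlap of Cebpa with Gm45091 and a 17-base overlap of Plin4 with Hdgfl2, both on opposite strands, carry the same uncertainty.

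Ratios within a library do not depend on how libraries are scaled, and these were formed after the values had been seen. The ratio of Pparg to Cebpa RPKM was 0.90, 0.78 and 0.86 in labelled-positive libraries, against 0.17, 0.19 and 0.16 in labelled-negative libraries. The ratio of Cebpb to Cebpa was 2.13, 2.20 and 2.25 in labelled-positive libraries, against 0.67, 0.59 and 0.70 in labelled-negative libraries. Per length of exon, Cebpa thus exceeded both other factors in every labelled-negative library. In labelled-positive libraries Cebpb exceeded Cebpa, and Pparg stayed below it. Each ratio separated the groups completely (two-sided exact permutation test, p = 0.1). That outcome was fixed in advance, because the groups did not overlap in any of these genes and Cebpa went the other way. The test therefore adds nothing to the values of the single genes.

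**Figure D1:**
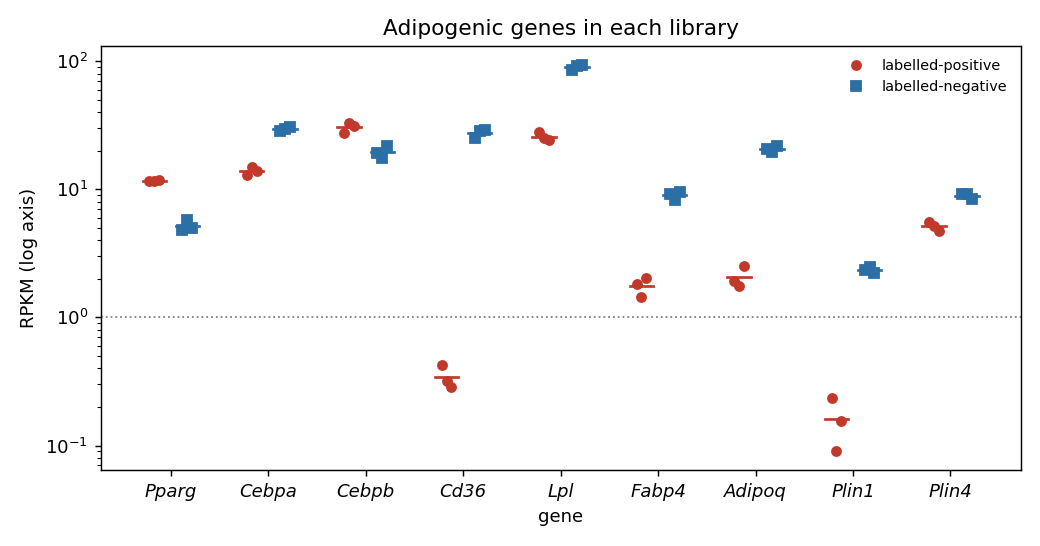
RPKM of each of the 9 genes in every library on a log axis, with labelled-positive libraries left of labelled-negative ones; points are libraries, short bars the group means, and the dotted line the 1 RPKM of the filter. Pparg and Cebpb lie higher in labelled-positive libraries, the other 7 genes lie lower, and in none of the 9 do the groups overlap.

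The 3 of the 9 genes that supply or carry fatty acid, Cd36, Lpl and Fabp4, were all lower in labelled-positive cells. Cd36, the surface fatty acid transporter and scavenger receptor (chr5:17781690-17888801, minus strand, 3590 exonic bases), had 0.42, 0.32 and 0.29 RPKM in labelled-positive libraries, against 25.2, 28.5 and 28.9 RPKM in labelled-negative libraries. It was near the limit of measurement in one group and well expressed in the other. Those values correspond to 25, 19 and 17 reads in labelled-positive libraries and to 1687, 1905 and 1934 reads in labelled-negative libraries. The ratio of summed reads gave a fold of 80.5 lower (95% exact binomial interval 62.6 to 105), an interval that covers counting error only. The limma log2 fold change was -4.41 (SE 0.07, adjusted p = 4.8e-09). On the log2(RPKM + 1) scale the change of genes near or below 1 RPKM is understated.

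Lpl, the secreted lipase that frees fatty acids from circulating lipoproteins (chr8:68880491-68907448, plus strand, 10478 exonic bases), was the most highly expressed of the 9 genes in labelled-negative cells. It had 28.0, 25.3 and 24.1 RPKM in labelled-positive libraries, against 85.04, 91.18 and 92.89 RPKM in labelled-negative libraries. The groups were well separated, and in contrast to Cd36 the gene kept a clear level in labelled-positive cells, at the 88.2nd percentile of genes. The means were 25.8 ± 1.98 and 89.7 ± 4.13 RPKM, 3.48-fold lower, with a log2 fold change of -1.76 (SE 0.07, adjusted p = 2.4e-07). Within a library, the ratio of Cd36 to Lpl was 0.015, 0.013 and 0.012 in labelled-positive cells and 0.30, 0.31 and 0.31 in labelled-negative cells, so Cd36 was lower by more than Lpl was.

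Fabp4, the fatty acid carrier that is abundant in fat cells and is also made by macrophages and capillary endothelium (chr3:10204088-10208576, minus strand, 4489 exonic bases), had 1.82, 1.44 and 2.01 RPKM in labelled-positive libraries, against 9.11, 8.22 and 9.50 RPKM in labelled-negative libraries. The higher level stood at the 69.6th percentile of genes. The merged exons cover the whole span of Fabp4, so its RPKM and percentile may be understated, while the comparison between groups does not depend on that length. The means were 1.75 ± 0.29 and 8.94 ± 0.66 RPKM, 5.10-fold lower, with a log2 fold change of -1.86 (SE 0.09, adjusted p = 8.4e-07).

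Adipoq, which encodes the fat cell hormone adiponectin (chr16:23146536-23158028, plus strand, 1381 exonic bases), is known as a gene largely restricted to fat cells. It had 1.94, 1.75 and 2.53 RPKM in labelled-positive libraries, against 20.4, 19.4 and 21.7 RPKM in labelled-negative libraries. The labelled-positive values rest on 44, 40 and 58 reads and the labelled-negative values on 526, 500 and 559 reads. All 3 labelled-positive libraries held some Adipoq, at a low level. The ratio of summed reads was 9.92-fold lower (95% exact binomial interval 8.35 to 11.9), and the log2 fold change was -2.82 (SE 0.10, adjusted p = 1.1e-07). In bulk RNA, fewer cells of a type and less RNA per cell cannot be told apart, for Adipoq or for any other gene described here.

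Of the droplet coat genes, Plin1, perilipin 1, guards the large droplet of fat cells and gates lipolysis (chr7:79720218-79732903, minus strand, 4649 exonic bases). It had 0.24, 0.091 and 0.16 RPKM in labelled-positive libraries, against 2.34, 2.48 and 2.21 RPKM in labelled-negative libraries. The labelled-positive values are only 18, 7 and 12 reads, against 203, 215 and 191 reads in labelled-negative libraries. By summed reads it was 14.6-fold lower (95% exact binomial interval 10.49 to 20.97), and the log2 fold change was -1.53 (SE 0.07, adjusted p = 6.6e-07). Even in labelled-negative cells Plin1 stood only at the 38.5th percentile of genes, whereas Lpl, Cebpa and Cd36 stood at 97.7, 90.9 and 89.9. Such ranks between genes depend on the merged exon lengths.

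Plin4, perilipin 4, coats small droplets (chr17:56100591-56109803, minus strand, 5777 exonic bases) and was lower by less. It had 5.54, 5.18 and 4.74 RPKM in labelled-positive libraries, against 9.11, 9.10 and 8.45 RPKM in labelled-negative libraries. The groups were separate, with a 1.73-fold difference of means and a log2 fold change of -0.69 (SE 0.07, adjusted p = 5.1e-05). It did not pass the 1.5-fold test (adjusted p = 0.66), although with libraries scaled to their total reads it did (adjusted p = 0.015). The ratio of Plin4 to Plin1 RPKM was 23.5, 57.1 and 30.4 in labelled-positive libraries and 3.88, 3.66 and 3.83 in labelled-negative libraries.

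**Figure D2:**
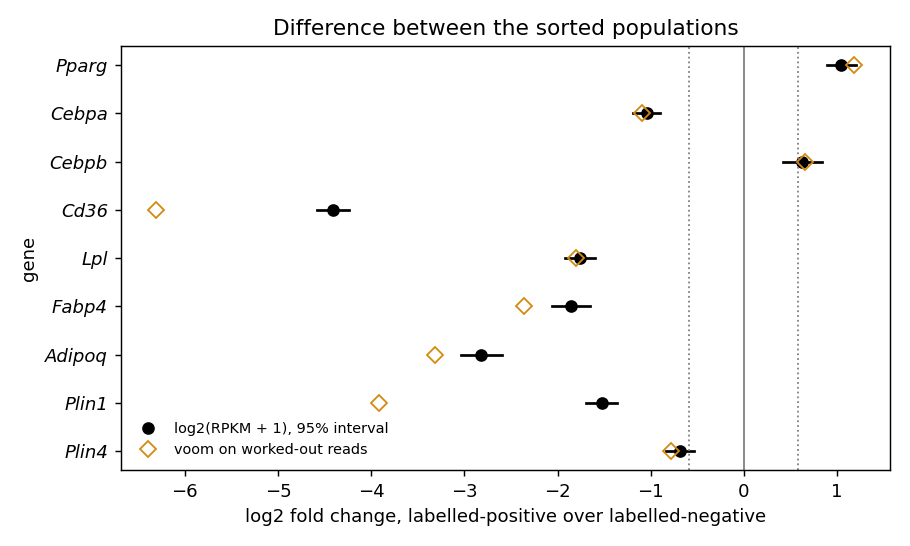
Log2 fold change of each of the 9 genes, labelled-positive over labelled-negative: filled points with 95% intervals are from limma on log2(RPKM + 1), open diamonds from voom on the worked-out reads, and dotted lines mark a 1.5-fold change either way. The filled points of Cd36 (-4.41) and Adipoq (-2.82) lie farthest below 0, Pparg (1.04) and Cebpb (0.63) lie above it, and for Cd36 and Plin1 the diamonds (-6.31 and -3.91) lie well below the filled points.

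Further regulators, inhibitors, droplet, synthesis and uptake genes moved in both directions, and the medians of these 5 lists lay nearer to 0 than that of the 9 genes. The median of the 9 includes Plin1 and Cd36, whose direction was fixed by the filter. Of 15 further adipogenic regulators, all tested, 3 were higher, 5 were lower and 7 did not pass the test, with a median log2 fold change of -0.07. Cebpd, the partner of Cebpb in the early relay, averaged 20.3 ± 1.70 RPKM in labelled-positive and 12.5 ± 1.33 RPKM in labelled-negative cells (log2 fold change 0.66, adjusted p = 3.8e-04). Egr2, an early inducer of adipogenesis in mouse cell lines, was also higher, 2.88 ± 0.17 against 1.60 ± 0.09 RPKM. Klf5, an activator of Pparg, and Ebf2, a factor of mouse fat precursors, passed the 1.5-fold test, both lower, but they reached the filter in labelled-negative libraries only, so their direction was fixed by the filter. The other 13 regulators held 3 higher and 3 lower. Klf5 averaged 0.18 ± 0.04 RPKM in labelled-positive and 1.29 ± 0.02 RPKM in labelled-negative cells, and Ebf2 0.25 ± 0.07 and 1.39 ± 0.07 RPKM. Without labelled-negative replicate 2, the count of lower regulators was 3, and with libraries scaled to total reads it was 10, with 2 higher.

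Of 12 inhibitors of adipogenesis, 10 were tested, of which 2 were higher, 6 were lower and 2 did not pass, with a median log2 fold change of -0.21. Dlk1, the preadipocyte protein that holds back differentiation, averaged 0.70 ± 0.10 RPKM in labelled-positive and 5.01 ± 0.29 RPKM in labelled-negative cells, 7.14-fold lower. Dlk1 and Twist2 reached the filter in labelled-negative libraries only, so their calls could go 1 way only; of the other 8 tested, 2 were higher and 4 lower. Zfp521, an antagonist of Ebf factors, was 1.78-fold lower, 15.4 ± 0.21 against 27.3 ± 1.35 RPKM. Klf2, which represses Pparg, averaged 13.6 ± 1.42 and 8.61 ± 1.00 RPKM, and Sox9, which represses C/EBP genes, 13.8 ± 0.92 and 9.45 ± 0.21 RPKM, both higher in labelled-positive cells.

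Of 16 further lipid droplet and lipolysis genes, 12 were in the table and tested, of which 4 were higher, 5 were lower and 3 did not pass, with a median log2 fold change of -0.12. Of the lipases that act in turn on stored fat, Pnpla2 and Lipe, which act first and second, were lower and Mgll, which acts last, was higher. Pnpla2 averaged 9.50 ± 0.66 RPKM in labelled-positive and 11.5 ± 0.50 RPKM in labelled-negative cells (log2 fold change -0.26, adjusted p = 0.0096). Mgll, monoglyceride lipase, averaged 9.89 ± 0.23 RPKM in labelled-positive and 4.38 ± 0.27 RPKM in labelled-negative cells, 2.26-fold higher, and was the only gene of this list past 1.5-fold (adjusted p = 6.1e-04). Lipe, hormone-sensitive lipase, averaged 0.65 ± 0.06 and 1.56 ± 0.11 RPKM, 2.39-fold lower, and reached the filter in labelled-negative libraries only, so its call could go 1 way only. The Mgll to Lipe ratio was 13.9, 16.3 and 15.4 in labelled-positive libraries and 2.91, 2.72 and 2.79 in labelled-negative libraries. Hilpda, a droplet protein that inhibits lipolysis, was 1.55-fold higher, 12.8 ± 1.14 against 8.29 ± 0.67 RPKM. Plin2, the perilipin found in most cell types, was 1.37-fold lower, 20.5 ± 1.69 against 28.0 ± 3.38 RPKM. The count of higher genes was 2 without labelled-positive replicate 3, without labelled-negative replicate 1 and without labelled-negative replicate 2, and also 2, with 7 lower, when libraries were scaled to total reads.

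Of 16 genes of fatty acid and triglyceride synthesis, 13 were tested, of which 2 were higher, 4 were lower and 7 did not pass, with a median log2 fold change of 0.005. Elovl6, which lengthens saturated fatty acids, was the single one past 1.5-fold, at 3.45 ± 0.67 RPKM in labelled-positive and 8.33 ± 0.53 RPKM in labelled-negative cells (log2 fold change -1.08, adjusted p = 5.4e-05). Acly, which supplies acetyl-CoA for lipid synthesis, was 1.29-fold lower. The desaturases Scd1 and Scd2 were 1.26-fold and 1.19-fold higher, calls that were absent when libraries were scaled to total reads (log2 fold changes 0.12 and 0.04, with adjusted p = 0.092 and 0.49). On that scaling the list had 0 higher and 6 lower.

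Of 15 partners of Lpl and genes of fatty acid uptake, 10 were in the table and tested, of which 3 were higher, 4 were lower and 3 did not pass, with a median log2 fold change of -0.06. Angptl4, a secreted inhibitor of Lpl, was higher where Lpl was lower: it averaged 18.8 ± 0.83 RPKM in labelled-positive and 7.84 ± 0.50 RPKM in labelled-negative cells (log2 fold change 1.17, adjusted p = 1.3e-06). The Angptl4 to Lpl ratio was 0.64, 0.76 and 0.81 in labelled-positive libraries, against 0.088, 0.084 and 0.090 in labelled-negative libraries. Slc27a4, a fatty acid transport protein, was 1.35-fold higher, 14.7 ± 0.58 against 10.9 ± 0.16 RPKM. The carriers Fabp5 and Fabp3, relatives of Fabp4, were lower, Fabp5 by 3.33-fold (2.13 ± 0.14 against 7.11 ± 0.82 RPKM) and Fabp3 by 2.77-fold (1.71 ± 0.33 against 4.74 ± 0.70 RPKM).

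Genes of mature fat cells outside the 9 were lower as well. Of 15, 9 were in the table and all 9 had a lower mean in labelled-positive cells; 3 reached the filter and all 3 were called lower, past 1.5-fold, with a median log2 fold change of -1.70. Cfd, the secreted protease adipsin, averaged 1.11 ± 0.23 RPKM in labelled-positive and 7.65 ± 1.19 RPKM in labelled-negative cells, 6.86-fold lower (log2 fold change -2.03, adjusted p = 2.1e-06). Sncg, gamma-synuclein, was 4.54-fold lower, 1.796 ± 0.196 against 8.15 ± 1.29 RPKM. With no filter on low values, 8 were called lower, and with libraries scaled to total reads 5 were. Of 10 genes of preadipocytes and fibro-adipogenic progenitors, 7 were tested, of which 6 were lower and 1 higher, with a median of -1.08. Cd55 and Cd34 were 4.81-fold and 4.13-fold lower, at 4.37 ± 0.43 against 21.1 ± 0.66 RPKM and 3.79 ± 0.35 against 15.6 ± 0.11 RPKM. Pdgfrb, a receptor of perivascular and stromal cells, was the exception, at 150 ± 1.31 RPKM in labelled-positive and 76.8 ± 2.79 RPKM in labelled-negative cells.

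**Figure D3:**
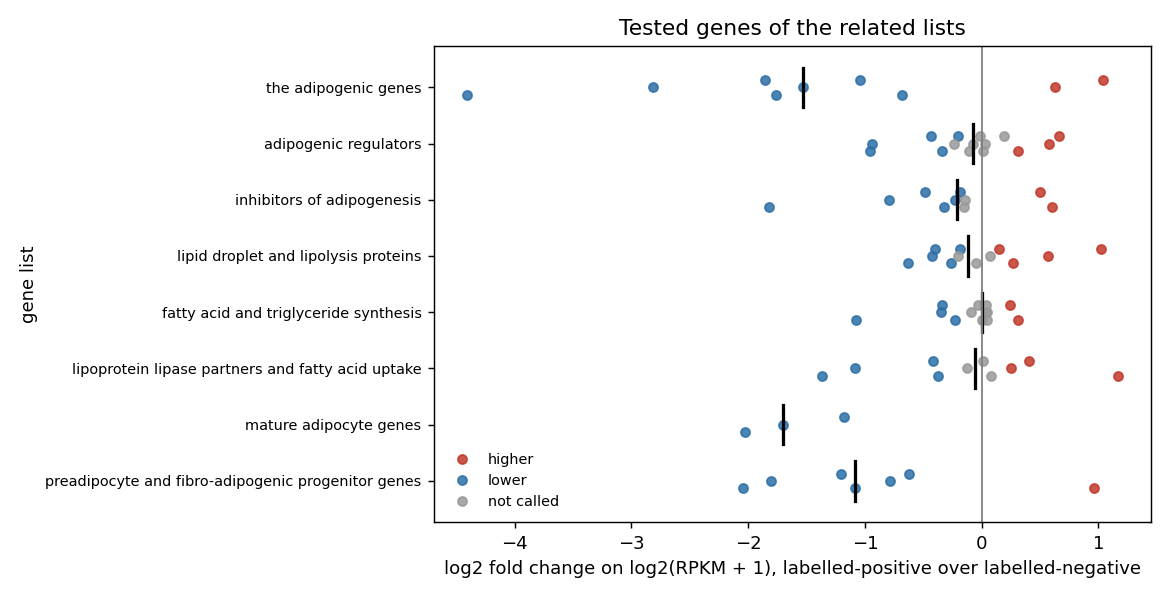
Log2 fold change, labelled-positive over labelled-negative, of each tested gene of the 9 genes and of the pathway lists; each point is 1 gene, coloured by its call, and the vertical bars are medians. The 9 genes (median -1.53) and the mature fat cell genes (median -1.70) lie mostly below 0, whereas regulators and droplet genes outside the 9 spread on both sides. Plin1 and Cd36, among the 9, passed the filter only through labelled-negative libraries.

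Marker genes of some other cell types also differed between the groups. Macrophage markers were lower in labelled-positive cells, and most endothelial and Schwann cell markers were higher. Of 18 macrophage markers, 17 were in the table, and all 17 had a lower mean in labelled-positive cells. The test covered 15 and called all 15 lower, but 11 of these reached the filter in labelled-negative libraries only, which fixed their direction; the other 4 were Cd68, Lyz2, Cd14 and Laptm5. Their summed level ranged from 29.5 to 37.6 RPKM in labelled-positive libraries and from 601 to 726 RPKM in labelled-negative libraries. Tyrobp, an adaptor of myeloid receptors, was at 0 in all 3 labelled-positive libraries. Lyz2, lysozyme, averaged 27.4 ± 3.09 RPKM in labelled-positive and 430 ± 38.5 RPKM in labelled-negative cells, and Ctss, cathepsin S, 0.074 ± 0.092 and 35.9 ± 4.39 RPKM. These markers moved in the direction of the 7 lower genes, among them Cd36, Lpl and Fabp4, which macrophages express. The ratio of Lpl to Lyz2 was 1.16, 0.84 and 0.87 in labelled-positive libraries, against 0.22, 0.22 and 0.20 in labelled-negative libraries, so Lyz2 was lower by more than Lpl was. The ratio of Cd36 to Lyz2 was 0.018, 0.011 and 0.010 in labelled-positive libraries, against 0.064, 0.067 and 0.061 in labelled-negative libraries, so Cd36 was lower by more than Lyz2 was. Both orders hold for Lyz2 only, which was 15.7-fold lower. Where a fold could be formed, the markers ran from 1.26-fold lower for Cd14 to 862-fold lower for C1qc. C1qc had 1, 1 and 0 reads in labelled-positive libraries. The folds of Lpl (3.48) and Cd36 (80.4) lay inside that range. The part of macrophages in the result was not tested.

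Of 12 endothelial markers, all in the table, 11 had a higher mean in labelled-positive cells and Tek a lower one. The test covered 8 and called 7 higher and 1 lower, but 6 of the higher ones reached the filter in labelled-positive libraries only and Tek in labelled-negative libraries only, so the filter fixed their direction. Their summed level was 20.5 to 22.0 RPKM in labelled-positive libraries and 5.12 to 6.28 RPKM in labelled-negative libraries, the opposite direction to that of Fabp4 and Cd36, which endothelium also makes. Whether endothelial cells had a part in the levels of Fabp4 and Cd36 was not tested. Cdh5, the junction protein that defines endothelium, averaged 5.07 ± 0.20 RPKM in labelled-positive cells and was at 0 in all labelled-negative libraries, as was Tie1. Emcn, endomucin, averaged 4.201 ± 0.277 and 0.017 ± 0.006 RPKM. Of 10 Schwann cell markers, 7 were tested, of which 5 were higher, 1 was lower and 1 did not pass, and 4 of the higher ones reached the filter in labelled-positive libraries only. The sum of the list was 307 to 329 RPKM in labelled-positive and 223 to 234 RPKM in labelled-negative libraries. Most of that sum was Pmp22, at 210 ± 7.40 and 206 ± 7.06 RPKM (adjusted p = 0.72), whereas Ngfr, which mesenchymal stem cells also express, was 14.5-fold higher at 72.2 ± 2.41 against 4.98 ± 0.59 RPKM. Skeletal muscle markers were too low to test: 3 of 10 were in the table and summed to 1.411 to 1.736 RPKM in labelled-positive and 1.499 to 2.05 RPKM in labelled-negative libraries. Acta1 averaged 0.80 ± 0.20 and 0.69 ± 0.25 RPKM, and Des 0.39 ± 0.10 and 0.60 ± 0.04 RPKM.

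Of 10 tendon cell genes, 9 were higher and 1 was lower in labelled-positive cells, with sums of 11350 to 12320 RPKM in labelled-positive and 3486 to 3682 RPKM in labelled-negative libraries. Fmod, the collagen-binding proteoglycan fibromodulin, averaged 3152 ± 112 RPKM in labelled-positive and 288 ± 8.28 RPKM in labelled-negative cells, and Col1a1, given above, was 1.69-fold higher. The lower gene was Tnmd, tenomodulin, at 6.88 ± 0.80 RPKM in labelled-positive and 27.2 ± 2.34 RPKM in labelled-negative cells. All 10 reached the filter in libraries of both groups, but at unlike levels. Thbs4 averaged 1011 ± 49.1 RPKM in labelled-positive and 2.23 ± 0.13 RPKM in labelled-negative cells. For the Schwann, endothelial and tendon cell genes too, their part in the differences of the 9 genes was not tested.

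**Figure D4:**
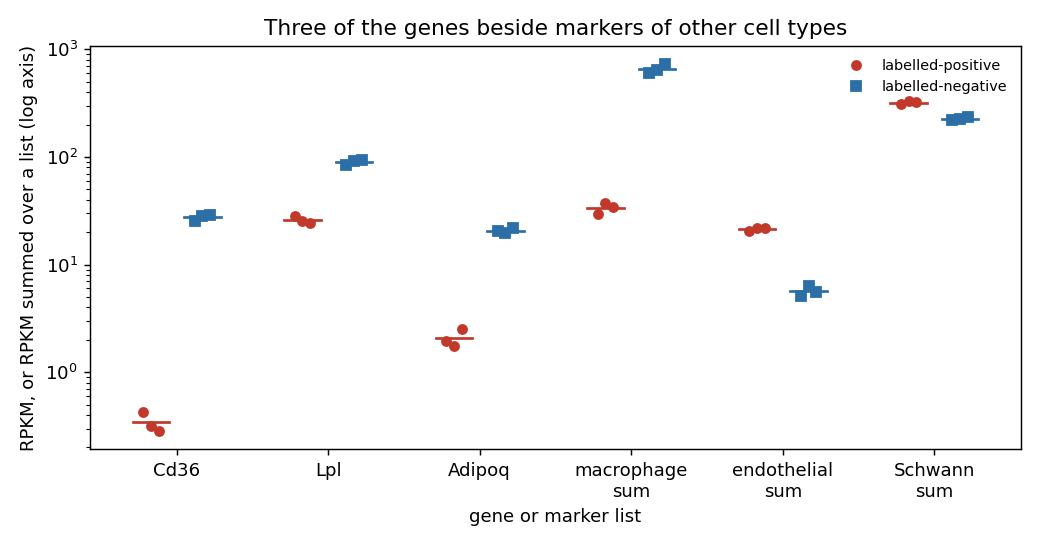
RPKM of Cd36, Lpl and Adipoq and summed RPKM of the macrophage, endothelial and Schwann cell marker lists in every library on a log axis, labelled-positive left of labelled-negative; points are libraries and short bars group means. Cd36, Lpl, Adipoq and the macrophage sum (29.5 to 37.6 RPKM in labelled-positive, 601 to 726 RPKM in labelled-negative libraries) are lower in labelled-positive libraries, whereas the endothelial and Schwann sums are higher.

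For 3 of the genes, the most similar patterns over the 6 libraries were listed among tested genes whose log2 fold change lay within 0.25 of theirs, by Pearson correlation of log2(RPKM + 1). For Pparg they were Serinc5, Sorcs2 and Il16, with r of 0.9985, 0.9984 and 0.9983 among 357 candidates. For Cd36 they were Cyp2f2, C1qc and Fcer1g, with r of 0.9994, 0.9992 and 0.9991 among 5 candidates, and C1qc and Fcer1g are macrophage markers of the list above. For Plin1 they were Adgrg6, Slco2a1 and Negr1, with r of 0.9995, 0.9991 and 0.9991 among 155 candidates. The 6 libraries fall into the 2 sorted groups, so such values mostly restate the group difference and are descriptions.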

How the data were processed

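RNA was sequenced from 3 labelled-positive and 3 labelled-negative libraries. The deposited table holds RPKM per gene; no unit is named in it, and RPKM was inferred from the numbers themselves. The build, per the submitters' processing notes, was mm10 and the tools included Cell Ranger and bcl2fastq 1.8.4; the aligner, the counter and whether strand was used were not given in the sources used here. With merged exon lengths from GENCODE M21, 15690 of 15691 genes gave whole reads in every library (tolerance 0.01 reads), the exception being Vldlr; 20 names turned into dates had no length. The implied library sizes (1 read in 1 kb is worth 0.0537 to 0.0608 RPKM) differ from the summed reads, so the authors had already scaled the libraries beyond their totals, and total-read scaling was tried as an alternative.

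Genes with at least 1 RPKM in at least 3 libraries were tested on log2(RPKM + 1) with limma 3.58.1 (trend and robust, statmod 1.5.0, R 4.3.3), Benjamini-Hochberg adjusted p under 0.05, and again against a 1.5-fold change. Intervals and ratios of single genes used scipy 1.17.1. Fits were tested on simulated data. Alternatives were 3 other scalings of the libraries (total reads, upper quartile, median ratio), no filter, a 5 RPKM filter, a pseudocount of 0.1, voom on the worked-out reads, a fit with the replicate number as a block, and each library left out. The labels do not say whether replicate numbers pair the samples, and the reported test did not pair them. The genes and lists were chosen with earlier results of these data known. Besides the 9 genes, the text names, of each pathway list, the called genes with the 2 largest changes in each direction. It also names, of each cell type list, the 2 of highest mean RPKM, and the 3 most similar genes to Pparg, Cd36 and Plin1. Tyrobp, Tie1, Pnpla2, Tek, Twist2, Cd68, Cd14, Laptm5, Tmem189, Hdgfl2, Tnmd, Thbs4 and the ratios were chosen after their values were seen.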

Additional observations from a re-analysis of the deposited data

How the results depend on the processing

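The calls of 2 genes higher and 7 lower held under every alternative except the 5 RPKM filter, which left Plin1 untested and 6 lower. The log2 fold changes ranged, over all alternatives, from 0.86 to 1.18 for Pparg, 0.43 to 0.70 for Cebpb, -1.24 to -0.99 for Cebpa, -0.86 to -0.64 for Plin4 and -1.96 to -1.72 for Lpl. For genes low in 1 group voom on the reads gave larger changes than log2(RPKM + 1), -6.31 for Cd36, -3.91 for Plin1, -3.31 for Adipoq and -2.36 for Fabp4. Total-read scaling shifted the median of all tested genes by -0.17 on the log2 scale; the other 2 scalings shifted it by 0.007 and 0.026.

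Among the lists, total-read scaling gave 10 lower regulators (5 in the reported test), 2 higher lipid droplet genes (4), 0 higher synthesis genes (2), 5 lower mature fat cell genes (3) and 2 lower Schwann genes (1), and turned the log2 fold change of Pmp22 to -0.17 (adjusted p = 0.032), where it was 0.03 (adjusted p = 0.72) in the reported test. The 5 RPKM filter, which tests fewer genes, gave 1 higher and 2 lower regulators (3 and 5), 2 lower inhibitors (6) and 3 higher Schwann genes (5), and it left no endothelial gene to test. No filter gave 8 lower mature fat cell genes. Leaving out 1 library at a time gave 3 to 7 lower regulators and 2 to 3 higher lipid droplet genes. Total-read scaling multiplies all genes of a library by the same factor, and the median of all tested genes moved by -0.17 with it. Apart from the filters and that scaling, the cause of these shifts was not tested.

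Deviations of same-numbered libraries from their group means had correlations of 0.30, -0.06 and 0.31 for replicates 1, 2 and 3. Labelled-positive replicate 2 correlated best with labelled-negative replicate 3 (0.27). With 3 libraries per group these values cannot decide whether the numbers pair the samples, so the replicate block was fitted as an alternative. With the replicate block, 2 of the 9 genes were higher and 7 lower, as without it.

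Depth limits Plin1 and Cd36 in labelled-positive cells, where single libraries hold 7 to 25 reads.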
